A study of Homo sapiens with 16 samples.

Results

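This account follows 10 named genes of the Wnt pathway, mostly secreted antagonists, receptor-level regulators and target genes, through RNA sequencing of 2 human lung cancer cell lines. The genes are SFRP1, SFRP5, DKK1, DKK3, AXIN2, LEF1, TCF7, RNF43, WNT5A and LGR4, found by symbol in the deposited tables. 9 of them were measured among 18227 genes, and LEF1 is not analysed here. The names were chosen with results of these same libraries known, and which values led to the choice is not recorded. The fold changes between genotypes, cultures or lines, the differences between effects and all adjusted p-values therefore describe these genes and are no independent evidence.

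A549 and H2023 are established lines of non-small cell lung cancer. Each line was sequenced as wild type and with a knockout of ZC3H12A, the gene of the RNase Regnase-1. Each genotype was grown for 3 days under normal conditions, or for 7 days in the stem-cell-enriched condition called oncosphere, so the kind of culture and its length change together. This gives 8 groups of 2 libraries. The titles name 1 clone a line for all libraries labelled knockout, so the edit cannot be told apart from any other trait of that clone, and the labels do not say whether 2 libraries of a group came from separate cultures. Where they did not, the p-values measure technical spread only.

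Values are TPM, a transcript level scaled for gene length and for the total of the library. They hold no record of sequencing depth, which is therefore unknown for each library. At least 1 TPM was reached by 13824 to 14508 genes a library. The r between replicates, on log2(TPM + 1), was 0.979 to 0.992 across the 11626 genes at 1 TPM or more in every library. SFRP5, RNF43 and WNT5A are not among those genes. ZC3H12A itself stood at 16.9 and 19.93 TPM in the A549 knockout libraries of normal culture, against 30.72 and 34.88 TPM in wild type. In the other 3 comparisons ZC3H12A went against the label, since both libraries labelled knockout were above both wild-type libraries, with 60.17 and 55.6 against 48.48 and 49.17 TPM in A549 oncospheres. The H2023 values were 41.48 and 41.54 against 26.78 and 29.85 TPM in normal culture, and 94.61 and 69.18 against 32.54 and 26.41 TPM in oncospheres. An edit can leave the mRNA in place, so its level alone does not test the genotype, and "labelled knockout" is used throughout. All 5 epithelial markers (EPCAM, KRT8, KRT18, KRT19, CDH1) were detected, with a summed level of 1450.09 to 10676.66 TPM. Their lowest sums, 1450.09 and 2522.87 TPM, were those of the A549 libraries labelled knockout in normal culture, against 7416.84 to 7626.13 TPM in wild type. EPCAM went down to 0.37 TPM and KRT19 to 0.29 TPM in single libraries. In H2023 the sums were higher in the labelled knockout, at 9816.33 to 10676.66 against 5886.68 to 7298.87 TPM in normal culture and at 6553.26 to 7086.59 against 3419.7 to 3445.66 TPM in oncospheres, and the part of these shifts in the results was not tested. Of other cell types, 2 of 6 haematopoietic markers were measured (sum at most 66.17 TPM, in A549 oncospheres), 1 of 4 endothelial markers (at most 2.76 TPM) and 3 of 5 fibroblast markers (at most 10.13 TPM).

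Wnt proteins are secreted ligands that bind Frizzled receptors and LRP co-receptors on the cell surface, which stops the destruction of beta-catenin and lets it enter the nucleus and act with TCF and LEF factors. Frizzled-related proteins (SFRP) bind Wnt ligands outside the cell, and Dickkopf proteins such as DKK1 block the LRP co-receptor. RNF43 removes Frizzled receptors from the surface, LGR4 binds R-spondins and so counteracts that removal, and AXIN2 is a scaffold of the complex that destroys beta-catenin. Several of these brakes, AXIN2, RNF43 and DKK1 among them, are themselves switched on by Wnt signalling, and the pathway is studied in lung cancer for its part in stem-like growth.

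Promoters of 3 of the genes are shown: SFRP5, because its level rose from near 0 in 1 group, and DKK1 and TCF7, because their windows hold letters that a TCF or LEF factor could read. Promoters of 6 of the 9 measured genes were matched by symbol in RefSeq sequences (GRCh38.p14). Each window is the 250 bases before an annotated start. Capitals mark CTTTG followed by 2 letters that are each A or T, searched on both strands, which is the core that TCF and LEF factors are known to bind. Its 4 forms share CTTTG, so at a given position only 1 can match. The SFRP5 window is at chr10:97772000-97772249 on the minus strand and overlaps no annotated exon, the TCF7 window at chr5:134123368-134123617 on the plus strand lies before the second of the gene's listed starts and inside the gene without touching an exon, and the DKK1 window at chr10:52314031-52314280 on the plus strand falls within an exon of the noncoding gene PRKG1-AS1.
SFRP5 promoter: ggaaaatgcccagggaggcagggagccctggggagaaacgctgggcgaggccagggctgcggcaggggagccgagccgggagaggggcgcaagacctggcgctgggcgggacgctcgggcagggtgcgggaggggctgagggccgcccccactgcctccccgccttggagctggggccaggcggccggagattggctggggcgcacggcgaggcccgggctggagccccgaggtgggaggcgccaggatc
TCF7 promoter: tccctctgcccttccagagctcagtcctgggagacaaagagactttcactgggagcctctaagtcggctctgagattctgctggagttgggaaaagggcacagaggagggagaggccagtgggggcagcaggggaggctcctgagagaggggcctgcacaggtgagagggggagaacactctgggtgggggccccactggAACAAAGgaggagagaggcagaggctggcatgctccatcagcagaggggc
DKK1 promoter: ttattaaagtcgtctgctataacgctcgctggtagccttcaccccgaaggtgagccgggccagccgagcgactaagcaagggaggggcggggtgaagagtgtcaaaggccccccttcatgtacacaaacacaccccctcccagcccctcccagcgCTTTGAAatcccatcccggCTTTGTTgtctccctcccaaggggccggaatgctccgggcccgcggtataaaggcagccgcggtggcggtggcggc
The DKK1 window holds 2 matches, which begin 95 and 76 bases before the start, and the TCF7 window holds 1 on the opposite strand, 50 bases before it. The window at the first listed start of TCF7 (chr5:134115363-134115612, not printed) holds none. The SFRP5 window holds none and is 76.8% G and C, against a median of 58.0% over all windows. With LEF1 included, 2 of 10 windows of these genes held a match. The share over all 35116 promoter windows of this length was 12.0% (4199 windows). A match is a run of letters and no evidence of binding.

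The genes spanned a wide range of abundance. DKK1, with a mean of 221.72 TPM over the 16 libraries, stood at the 96.9th percentile of all genes, and LGR4, with 93.06 TPM, at the 92.0th. SFRP1 (mean 23.52 TPM), DKK3 (16.34 TPM), RNF43 (14.58 TPM), AXIN2 (13.78 TPM) and TCF7 (7.66 TPM) were moderate. WNT5A (2.16 TPM) reached 1 TPM in 8 libraries, the 8 of H2023, and SFRP5 (1.65 TPM) in 2.

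**Figure D1:**
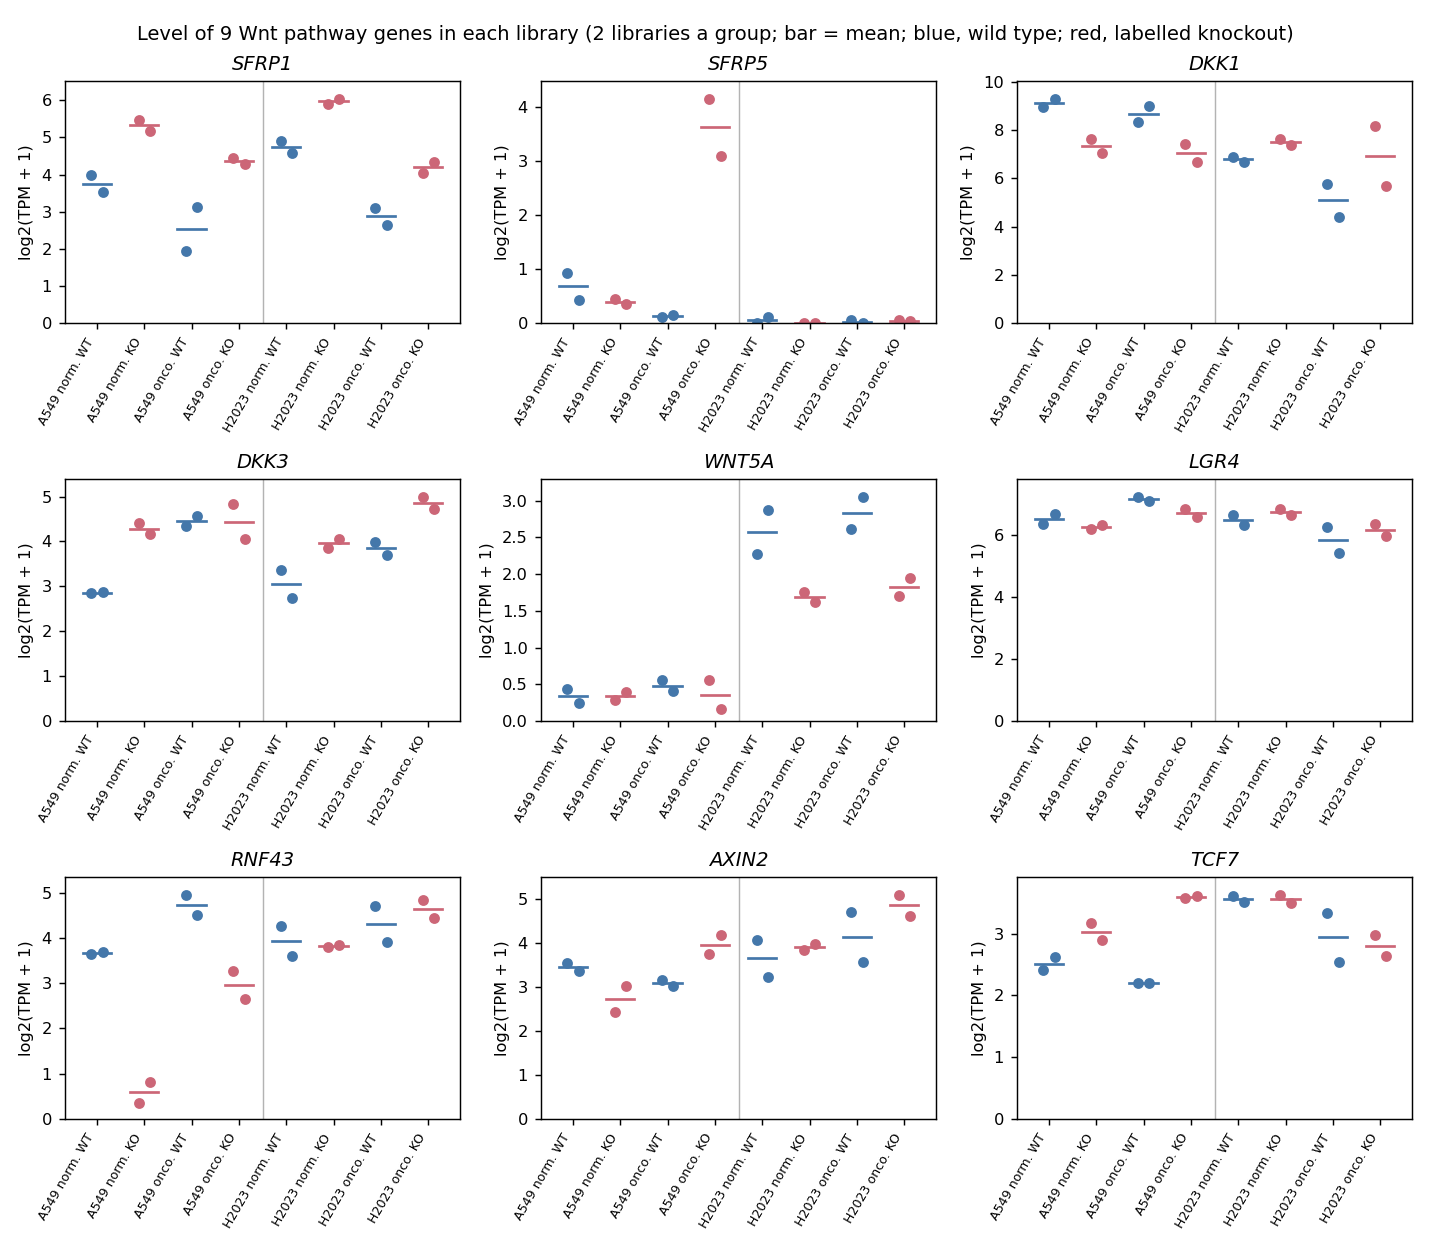
Level of the 9 measured genes in each of the 16 libraries, as log2(TPM + 1), with 1 panel a gene; points are libraries, the horizontal bar is the mean of the 2 libraries of a group, blue is wild type and red is labelled knockout. SFRP1 points of the labelled knockout lie above their wild type in all 4 pairs of groups, SFRP5 is raised only in the A549 oncosphere libraries labelled knockout (16.64 and 7.53 TPM), and RNF43 is lowest in A549 normal culture labelled knockout (0.28 and 0.77 TPM).

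Differences between groups were estimated with limma on log2(TPM + 1) in 1 fit over all 16 libraries, with adjusted p-values (Benjamini-Hochberg) over all 18227 genes and a threshold of 0.05. A fold change on this scale understates the change of genes near 0. With 2 libraries against 2, an exact permutation test of a single gene cannot go below p = 0.333, so none was run. Between labelled knockout and wild type, 3 of the 9 genes passed in A549 normal culture, where 17.7% of all genes did, and 4 of 9 in A549 oncospheres, where 20.7% did. In H2023 oncospheres 3 of 9 passed, against 5.56% of all genes. In H2023 normal culture 0 of 9 passed with limma, against 3.0% of all genes. There, 3 genes (SFRP1, DKK3 and WNT5A) had an unadjusted p under 0.05, as did 17.2% of all genes, and 3 genes (SFRP1, DKK1 and DKK3) passed in the authors' deposited table, which called 10.8% of its tested genes. Of the other authors' deposited tables, that of A549 normal culture called 5 of the genes (22.1% of all genes tested), that of A549 oncospheres 7 (20.7%) and that of H2023 oncospheres 2 (5.07%). Because the genes were chosen with these results known, nothing is read from these counts.

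**Figure D2:**
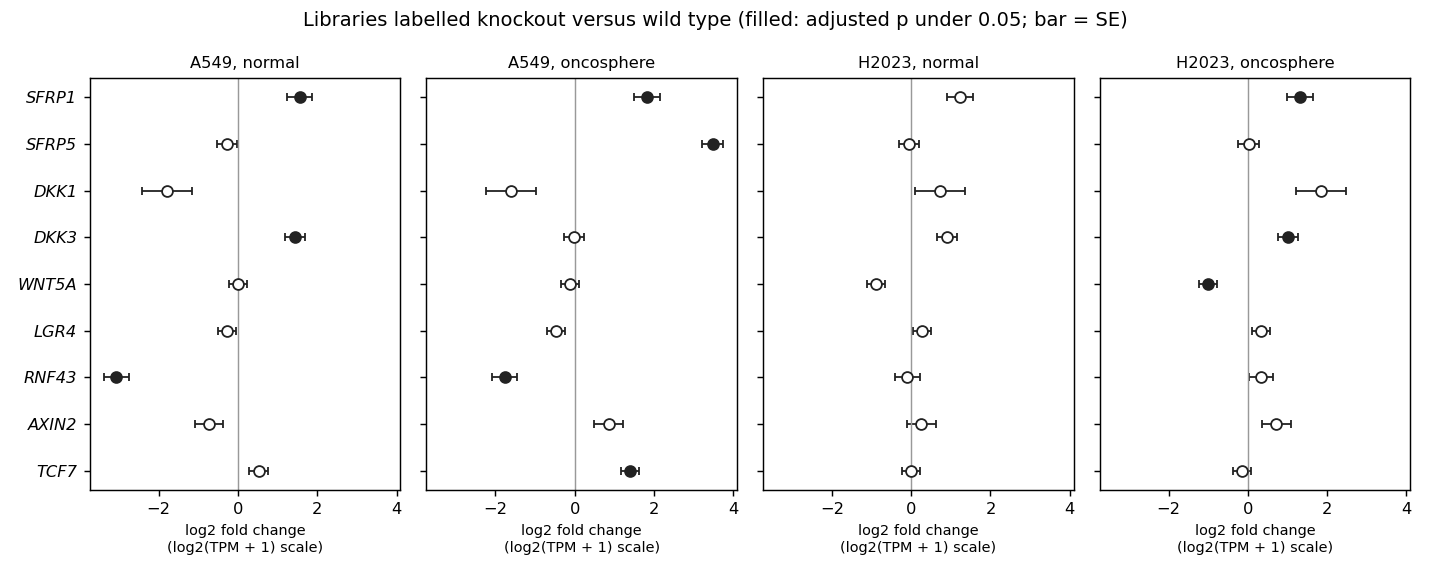
log2 fold change of labelled knockout over wild type for the 9 genes (log2(TPM + 1) scale, bars are standard errors of the limma fit), with 1 panel for each line and culture; filled points have an adjusted p under 0.05. SFRP1 lies between 1.23 and 1.83 in all 4 panels, whereas RNF43 is far below 0 in both A549 panels (-3.07 and -1.76) and near 0 in both H2023 panels (-0.10 and 0.33).

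Among the secreted antagonists, SFRP1 was higher in the libraries labelled knockout in both lines and both cultures. SFRP1 (ENSG00000104332), a Frizzled-related protein that binds Wnt ligands, stood at 14.85 and 10.54 TPM in A549 wild type and at 43.2 and 35.09 TPM in the labelled knockout in normal culture. In A549 oncospheres it stood at 2.83 and 7.73 TPM in wild type and at 20.89 and 18.31 TPM in the labelled knockout. The corresponding H2023 levels were 28.81 and 22.9 against 59.01 and 64.41 TPM in normal culture, and 7.64 and 5.25 against 15.46 and 19.39 TPM in oncospheres. The 2 genotypes did not overlap in any of these 4 comparisons. The log2 fold change was 1.56 (SE 0.32, limma adjusted p = 0.00564) in A549 normal culture and 1.83 (SE 0.32, adjusted p = 0.0014) in A549 oncospheres. In H2023 it was 1.23 (adjusted p = 0.0602) in normal culture, which missed the threshold, and 1.32 (adjusted p = 0.0322) in oncospheres. The H2023 oncosphere call was lost without any 1 of the 4 libraries compared (adjusted p from 0.0513 to 0.157). SFRP1 passed in each of the authors' deposited tables, at 1.69 (adjusted p = 6.79e-16) and 1.84 (adjusted p = 0.0384) in A549 normal and oncosphere culture and at 1.25 (adjusted p = 1.03e-13) and 1.35 (adjusted p = 4.3e-05) in H2023.

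SFRP5 differed from SFRP1 in being nearly silent everywhere except in 1 group. SFRP5 (ENSG00000120057, chr10:97766751-97771952, minus strand), another Frizzled-related antagonist and the first of the promoters printed above, was listed at 0.09 and 0.11 TPM in A549 wild-type oncospheres and at 16.64 and 7.53 TPM in the labelled knockout. All other libraries were at 0.9 TPM or below, with 0.9 and 0.35 TPM in A549 wild type and 0.36 and 0.28 TPM in the labelled knockout of normal culture. In H2023 all 8 libraries lay between 0 and 0.08 TPM, and 4 of them were listed at 0. The log2 fold change in A549 oncospheres was 3.48 (SE 0.26, limma adjusted p = 3.65e-06). It came to 5.82 with a pseudocount of 0.1 in place of 1, and to 6.40 in the authors' deposited table. The genotype effect in A549 was larger in oncospheres than in normal culture by 3.76 (SE 0.36, adjusted p = 0.000184), and in oncospheres it was smaller in H2023 than in A549 (difference -3.46, adjusted p = 0.000108).

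DKK1 went in opposite directions in the 2 lines. DKK1 (ENSG00000107984, chr10:52314296-52318042, plus strand), the secreted blocker of the LRP co-receptor, stood at 494.62 and 623.46 TPM in A549 wild type and at 197.28 and 130.59 TPM in the labelled knockout of normal culture. The A549 oncosphere levels were 322.59 and 510.44 TPM in wild type and 172.65 and 102.24 TPM in the labelled knockout. In H2023 the labelled knockout was the higher genotype, with 196.26 and 167.3 against 118.44 and 100.74 TPM in normal culture. The H2023 oncosphere replicates scattered, at 286.7 and 50.77 TPM in the labelled knockout and at 53.04 and 20.34 TPM in wild type, so there the genotypes overlapped.

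That scatter bears on every DKK1 test, because all 16 libraries share 1 estimate of the spread. The log2 fold changes were -1.78 (SE 0.63, limma adjusted p = 0.0716) in A549 normal culture and -1.60 (SE 0.63, adjusted p = 0.096) in A549 oncospheres, and neither passed. Without the H2023 oncosphere labelled-knockout replicate 1 (286.7 TPM) the same A549 differences had adjusted p-values of 0.0111 and 0.0147, and with only the 8 A549 libraries 0.00914 and 0.0098. In H2023 the values were 0.72 (adjusted p = 0.61) in normal culture and 1.85 (adjusted p = 0.111) in oncospheres. The latter was 0.61 (adjusted p = 0.581) without replicate 1 of the labelled knockout and 3.08 (adjusted p = 0.0146) without replicate 2, and it was 1.18 (adjusted p = 0.423) without wild-type replicate 2. The genotype effect differed between the lines in oncospheres by 3.45 (SE 0.89, adjusted p = 0.0208), or by 2.21 without that replicate 1. This call was lost without A549 wild-type replicate 2 (3.12, adjusted p = 0.0666), A549 labelled-knockout replicate 2 (3.07, adjusted p = 0.083) or H2023 wild-type replicate 2 (2.78, adjusted p = 0.0704). In normal culture the difference was 2.51 (adjusted p = 0.089), and 0.0162 was its adjusted p without that replicate 1. The authors' deposited tables gave log2 fold changes of -1.71 and -1.68 in A549 and of 0.78 and 2.01 in H2023, with adjusted p-values of 1.09e-12, 5.87e-08, 7.81e-06 and 0.467.

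DKK3 was low in the normal-culture wild type of both lines. DKK3 (ENSG00000050165, chr11:11963106-12009769, minus strand), a divergent member of the Dickkopf family, stood at 6.18 and 6.28 TPM in A549 wild type and at 20.12 and 16.86 TPM in the labelled knockout of normal culture. In A549 oncospheres wild type was already at 19.4 and 22.57 TPM, between the 27.34 and 15.51 TPM of the labelled knockout. The H2023 levels were 9.22 and 5.72 against 13.47 and 15.64 TPM in normal culture and 14.93 and 12.0 against 30.87 and 25.25 TPM in oncospheres, without overlap. The log2 fold change was 1.43 (SE 0.25, limma adjusted p = 0.0026) in A549 normal culture and -0.02 (adjusted p = 0.972) in A549 oncospheres. The difference between these 2 effects was -1.45 (adjusted p = 0.0266). That call was lost on leaving out any 1 of 7 of the 8 A549 libraries (adjusted p from 0.0538 to 0.0942), and A549 oncosphere labelled-knockout replicate 1 was the exception. In H2023 the fold changes were 0.90 (adjusted p = 0.0804) in normal culture and 1.01 (adjusted p = 0.0393) in oncospheres. The last was lost without any 1 of its 4 libraries (adjusted p from 0.0695 to 0.177), on centring libraries at their median (0.93, adjusted p = 0.0516), with the 8 H2023 libraries alone (adjusted p = 0.0921) and with the 4 compared (adjusted p = 0.231). The normal-culture value passed without wild-type replicate 1 (1.21, adjusted p = 0.0491). The authors' deposited tables gave DKK3 1.63 (adjusted p = 1.73e-14) and 0.11 (adjusted p = 0.883) in A549 normal and oncosphere culture, and 1.01 (adjusted p = 0.000814) and 0.94 (adjusted p = 0.000795) in H2023.

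WNT5A, a ligand known mainly for signalling that does not pass through beta-catenin, was a gene of H2023. WNT5A (ENSG00000114251, chr3:55465715-55490539, minus strand) lay between 0.12 and 0.47 TPM in the 8 A549 libraries. In H2023 it stood at 3.83 and 6.34 TPM in wild type and at 2.38 and 2.07 TPM in the labelled knockout of normal culture, and at 5.13 and 7.29 TPM against 2.24 and 2.85 TPM in oncospheres. The labelled knockout was below wild type in both cultures, without overlap. The log2 fold changes were -0.89 (SE 0.23, limma adjusted p = 0.0594) and -1.01 (SE 0.23, adjusted p = 0.0247). The first was -0.58 (adjusted p = 0.384) without wild-type replicate 2 and passed, at -1.19 (adjusted p = 0.0263), without wild-type replicate 1. The second was lost with the 8 H2023 libraries alone (adjusted p = 0.11), with a pseudocount of 0.1 (-1.24, adjusted p = 0.139), and without wild-type replicate 2, labelled-knockout replicate 1 or labelled-knockout replicate 2 (adjusted p from 0.0688 to 0.133). The authors' deposited tables gave -0.88 (adjusted p = 0.0967) and -0.94 (adjusted p = 0.0512).

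At the receptor, RNF43 fell in A549 and LGR4 did not pass the test. RNF43 (ENSG00000108375, chr17:58352500-58417595, minus strand), the ubiquitin ligase that takes Frizzled off the surface, stood at 11.49 and 11.83 TPM in A549 wild type and at 0.28 and 0.77 TPM in the labelled knockout of normal culture. In A549 oncospheres it stood at 30.12 and 21.66 TPM in wild type and at 8.71 and 5.3 TPM in the labelled knockout. The H2023 genotypes overlapped, at 18.33 and 11.07 against 13.01 and 13.42 TPM in normal culture and at 24.95 and 14.14 against 27.52 and 20.75 TPM in oncospheres. The log2 fold change was -3.07 (SE 0.31, limma adjusted p = 6.2e-05) in A549 normal culture and -1.76 (SE 0.31, adjusted p = 0.00167) in A549 oncospheres. In H2023 it was -0.10 (adjusted p = 0.918) and 0.33 (adjusted p = 0.604). The effect differed between the lines by 2.97 (SE 0.44, adjusted p = 0.00166) in normal culture and by 2.09 (SE 0.44, adjusted p = 0.00696) in oncospheres, being higher in H2023. RNF43 was called lower in both A549 cultures. The summed epithelial markers moved with RNF43 in A549 normal culture. In A549 oncospheres those sums overlapped, at 4994.65 to 7194.83 TPM in the labelled knockout and 5230.19 to 6570.26 TPM in wild type. KRT8 reached 5982.21 TPM and EPCAM at most 51.02 TPM, so the sums say little about EPCAM. The part of epithelial state in the RNF43 differences was not tested in either culture. The 2 A549 effects differed by 1.31 (adjusted p = 0.0846), which missed the threshold, but by 1.78 (adjusted p = 0.0378) with a pseudocount of 0.5 and by 2.46 (adjusted p = 0.023) with 0.1. Computed here from the authors' fold changes and standard errors, that difference was 2.56 (normal approximation, adjusted p = 1.7e-08). The authors' deposited tables gave -4.43 (adjusted p = 5.55e-46) and -1.87 (adjusted p = 3.1e-12) in A549.

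LGR4 (ENSG00000205213, chr11:27365961-27472775, minus strand), the R-spondin receptor, was abundant in every group. It stood at 80.76 and 102.29 TPM in A549 wild type against 72.21 and 78.86 TPM in the labelled knockout of normal culture, and at 150.97 and 138.48 against 113.42 and 96.01 TPM in oncospheres. The H2023 levels were 99.83 and 79.1 against 113.48 and 100.99 TPM, and 75.6 and 42.08 against 82.26 and 62.65 TPM. None of the 4 differences passed, with log2 fold changes of -0.27, -0.47, 0.27 and 0.34 and limma adjusted p-values of 0.473, 0.187, 0.611 and 0.439. In the authors' deposited table LGR4 was lower in A549 oncospheres (-0.51, adjusted p = 0.013). With the replicate block it passed there by limma too (-0.47, adjusted p = 0.0245).

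The target genes AXIN2 and TCF7 gave no common direction across the 4 comparisons. AXIN2 (ENSG00000168646, chr17:65528563-65561647, minus strand), widely used as a readout of beta-catenin activity, stood at 10.62 and 9.23 TPM in A549 wild type and at 4.36 and 7.07 TPM in the labelled knockout of normal culture. In A549 oncospheres the order was the other way, with 7.95 and 7.14 TPM in wild type and 12.36 and 17.05 TPM in the labelled knockout. Neither difference passed, at -0.73 (SE 0.36, limma adjusted p = 0.185) and 0.86 (SE 0.36, adjusted p = 0.113). The first was -0.43 (adjusted p = 0.574) without labelled-knockout replicate 1, and the second passed with the 8 A549 libraries alone (adjusted p = 0.0382). The difference between the 2 effects, 1.59, had an adjusted p of 0.0697, and 0.0347 with the 8 A549 libraries alone. The authors' deposited tables called both, at -0.66 (adjusted p = 0.0417) and 1.12 (adjusted p = 6.04e-06). In H2023 AXIN2 replicates scattered, at 15.77 and 8.39 against 13.27 and 14.75 TPM in normal culture and at 24.93 and 10.87 against 33.25 and 23.47 TPM in oncospheres, and the fold changes of 0.26 (adjusted p = 0.779) and 0.72 (adjusted p = 0.272) did not pass.

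TCF7 (ENSG00000081059, chr5:134114711-134151865, plus strand), a nuclear partner of beta-catenin, rose in A549 oncospheres labelled knockout. Its level there was 10.88 and 11.2 TPM, against 3.6 and 3.58 TPM in wild type, a log2 fold change of 1.39 (SE 0.23, limma adjusted p = 0.00106). In A549 normal culture it stood at 7.99 and 6.43 against 4.3 and 5.16 TPM, without overlap (0.52, adjusted p = 0.144). The 2 A549 effects differed by 0.87 (limma adjusted p = 0.114), which missed the threshold. Computed here from the authors' fold changes and standard errors, that difference was 1.12 (normal approximation, adjusted p = 0.0243). H2023 showed overlapping genotypes, at 11.41 and 10.27 against 11.26 and 10.46 TPM in normal culture and at 6.84 and 5.22 against 9.09 and 4.83 TPM in oncospheres. The oncosphere effect was lower in H2023 than in A549 by 1.53 on the log2 scale (difference -1.53, SE 0.33, adjusted p = 0.00746).

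The tests of differences between effects gave the following counts. Between cultures, 2 of the 9 genes (SFRP5 and DKK3) passed in A549, against 9.71% of all genes, and 0 of 9 in H2023, where 1 gene in all passed (0.00549%). In H2023 none of the 9 had an unadjusted p under 0.05 in limma, as 6.97% of all genes did. None passed in differences computed here from the authors' deposited fold changes and standard errors, where 0.506% of all genes did. Between the lines, 1 gene (RNF43) passed in normal culture, against 12.1% of all genes, and 4 (SFRP5, DKK1, RNF43 and TCF7) in oncospheres, against 16.3%. Differences computed here in that way called 5 of the genes for A549 cultures (9.8% of all genes). They called 4 for the lines in normal culture (19.2%) and 3 for the lines in oncospheres (15.0%). SFRP5 has no adjusted p in the authors' H2023 tables. It was therefore not tested in the differences computed from those tables between the lines or between H2023 cultures.

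Culture moved SFRP1 and DKK3 in opposite directions. Oncosphere and normal libraries differ in days as well as in condition, and mitochondrial genes held 19.5% to 25.6% of TPM in oncospheres against 10.3% to 18.7% in normal culture; the part of that share in these differences was not tested beyond leaving those genes out. SFRP1 was lower in oncospheres in all 4 settings, with log2 fold changes of -1.23 (limma adjusted p = 0.00788) in A549 wild type, -0.96 (adjusted p = 0.0469) in A549 labelled knockout, -1.86 (adjusted p = 0.00119) in H2023 wild type and -1.77 (adjusted p = 0.00111) in H2023 labelled knockout. The second lost its call under most alternatives, with an adjusted p of 0.0671 without mitochondrial genes. The first lost it without A549 normal wild-type replicate 1 (-1.0, adjusted p = 0.0756) or oncosphere wild-type replicate 1 (-0.63, adjusted p = 0.083). DKK3 was higher in oncospheres by 1.60 (adjusted p = 0.000323) in A549 wild type, by 0.80 (adjusted p = 0.0343) in H2023 wild type and by 0.90 (adjusted p = 0.0166) in H2023 labelled knockout. The H2023 wild-type call was lost without normal replicate 2 (0.49, adjusted p = 0.25) or either oncosphere replicate (adjusted p = 0.0555 and 0.161), and that of the H2023 labelled knockout without replicate 1 of either culture (adjusted p = 0.104 and 0.102). In A549 labelled knockout DKK3 was 0.16 apart (adjusted p = 0.722).

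**Figure D3:**
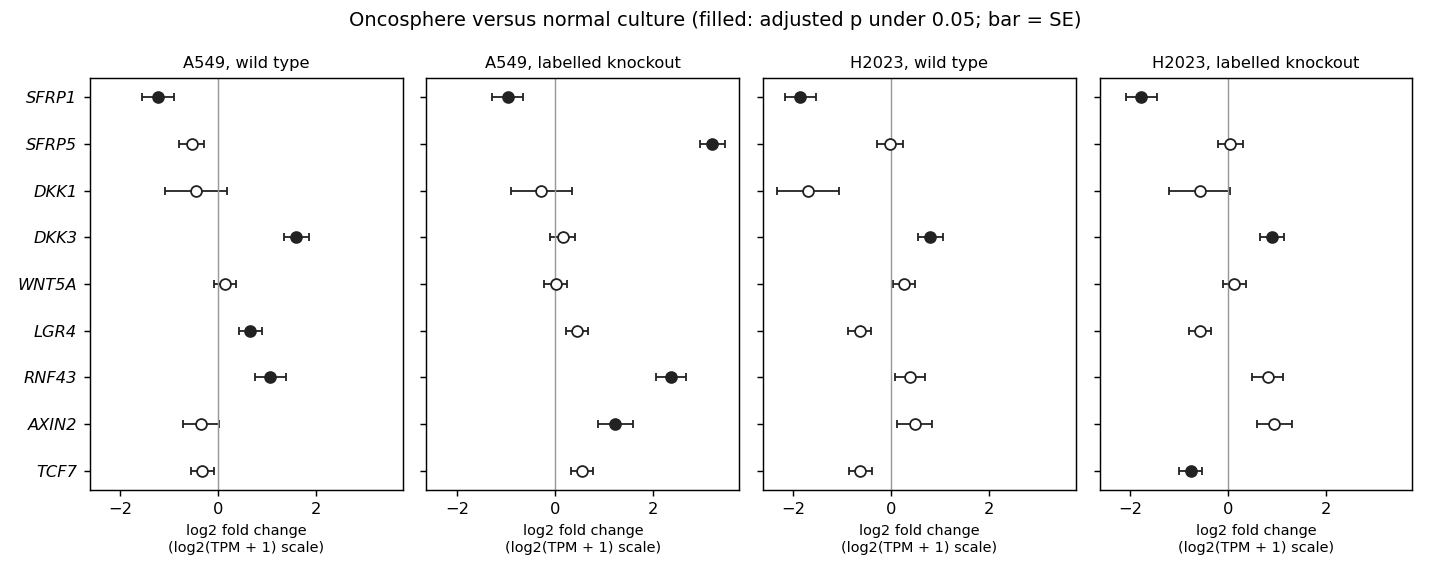
log2 fold change of oncosphere over normal culture for the 9 genes (log2(TPM + 1) scale, bars are standard errors), with 1 panel for each line and genotype; filled points have an adjusted p under 0.05. SFRP1 lies left of 0 in all 4 panels (-0.96 to -1.86), and SFRP5 stands out only in A549 labelled knockout (3.22).

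RNF43 rose in A549 oncospheres of both genotypes, and AXIN2 and SFRP5 in those labelled knockout. RNF43 rose by 1.07 (adjusted p = 0.0156) in A549 wild type and by 2.38 (adjusted p = 0.000208) in A549 labelled knockout, by limma. The wild-type call was lost without normal replicate 1, normal replicate 2 or oncosphere replicate 1 (adjusted p from 0.0548 to 0.12). In the A549 labelled knockout AXIN2 rose by 1.24 (adjusted p = 0.0264) and SFRP5 by 3.22 (adjusted p = 9.29e-06). The AXIN2 call was lost without normal replicate 1 (0.94, adjusted p = 0.186) or either oncosphere replicate (adjusted p = 0.0544 and 0.155). LGR4 rose in A549 wild-type oncospheres by 0.66 (adjusted p = 0.037), and lost that call without normal replicate 1 or either oncosphere replicate (adjusted p from 0.081 to 0.222). In H2023 labelled knockout TCF7 was lower in oncospheres (-0.76, adjusted p = 0.0242). It was no longer called, at -0.56 (adjusted p = 0.0838), when libraries were centred on the median of genes at 1 TPM or more in every library. It also lost its call without normal replicate 1, normal replicate 2 or oncosphere replicate 2 (adjusted p from 0.0653 to 0.16). With that centring AXIN2 (1.15, adjusted p = 0.0291) and RNF43 (1.01, adjusted p = 0.0275) passed in the H2023 labelled knockout, where they stood at 0.95 (adjusted p = 0.0617) and 0.81 (adjusted p = 0.0664) without it. LGR4 went the other way in H2023 oncospheres without passing, at -0.65 (adjusted p = 0.0575) in wild type and -0.57 (adjusted p = 0.0817) in the labelled knockout. WNT5A and DKK1 passed in none of the 4 culture comparisons. DKK1 was at -1.70 (adjusted p = 0.0651) in H2023 wild type, or -2.37 (adjusted p = 0.037) and -1.03 (adjusted p = 0.368) without oncosphere wild-type replicate 1 and 2. Its adjusted p there was 0.00891 without the H2023 oncosphere labelled-knockout replicate 1. In the H2023 labelled knockout DKK1 was at -0.58 (adjusted p = 0.539), or -1.82 (adjusted p = 0.0184) without that library. In all, 4 of 9 genes passed in A549 wild type (41.5% of all genes), 4 in A549 labelled knockout (22.4%), 2 in H2023 wild type (27.4%) and 3 in H2023 labelled knockout (32.5%).

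The wild types of the 2 lines differed most in WNT5A and DKK1. WNT5A was higher in H2023 than in A549 by 2.23 (limma adjusted p = 1.47e-05) in normal culture and by 2.35 (adjusted p = 7.39e-06) in oncospheres. DKK1 was lower in H2023, by a log2 fold change of -2.34 (adjusted p = 0.0107) in normal culture and of -3.58 (adjusted p = 0.000617) in oncospheres. The first lost its call without replicate 2 of either line (adjusted p = 0.0611 for A549 and 0.0562 for H2023). TCF7 was higher in H2023 by 1.05 (adjusted p = 0.00311) in normal culture and by 0.74 (adjusted p = 0.0189) in oncospheres, the latter 0.35 (adjusted p = 0.213) without H2023 replicate 1, 1.14 without H2023 replicate 2, and past the threshold no longer without either A549 replicate (adjusted p = 0.0675 and 0.0673). LGR4 was lower in H2023 in oncospheres (-1.34, adjusted p = 0.000547) and at -0.03 in normal culture. AXIN2 was higher in H2023 oncospheres by 1.04 (adjusted p = 0.0307), and by 1.60 (adjusted p = 0.00394) without H2023 replicate 2. That call was lost without H2023 replicate 1 (0.48, adjusted p = 0.307), A549 replicate 1 (1.11, adjusted p = 0.0797) or A549 replicate 2 (0.97, adjusted p = 0.116). SFRP1 was higher in H2023 in normal culture by 0.98 (adjusted p = 0.0256), or by 0.82 (adjusted p = 0.0578) after centring on the median. Its call was also lost without A549 replicate 2 (0.75) or H2023 replicate 1 (0.82). In normal culture 4 of 9 genes passed, against 41.5% of all genes, and in oncospheres 5 of 9, against 47.8%.

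The wider pathway was read from 6 lists written from general knowledge, with earlier results of these data known. They name 111 further genes, of which 84 were measured, and PORCN stands in 2 lists. In A549 oncospheres 19 of the 84 rose and 4 fell in the labelled knockout, where 10.2% and 10.5% of all genes did, and the median log2 fold change of the 84 was 0.20 against 0.03 over all genes. In A549 normal culture 9 rose and 7 fell, against 7.32% and 10.4% of all genes. H2023 had 1 riser and 1 faller in normal culture, against 1.03% and 1.97% of all genes, and 2 risers and 1 faller in oncospheres, against 3.17% and 2.4%.

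In A549 oncospheres the ligand and secretion list gave 4 risers and 1 faller among its 12 measured genes, against 10.2% and 10.5% of all genes. WNT6, a Wnt ligand, stood at 0.25 and 0.36 TPM in wild type and at 14.76 and 19.11 TPM in the labelled knockout, a log2 fold change of 3.77 (limma adjusted p = 2.38e-07). WLS, the carrier that brings Wnt proteins to the cell surface, stood at 16.5 and 10.48 TPM in wild type and at 35.26 and 42.87 TPM in the labelled knockout (1.49, adjusted p = 0.00891). PORCN, the enzyme that attaches the lipid Wnt proteins need, rose in both A549 cultures, with 56.93 and 37.03 TPM in wild type and 138.37 and 135.01 TPM in the labelled knockout of normal culture (1.55, adjusted p = 0.000308) and by 1.04 (adjusted p = 0.00264) in oncospheres. RSPO3, an R-spondin, was the other riser and WNT4 the faller.

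The receptor list gave 5 risers (FZD2, FZD7, LGR5, RYK, ZNRF3) and 2 fallers (LRP5, TSPAN12) among 19 genes in A549 oncospheres. Over all genes 10.2% rose and 10.5% fell there. LGR5, a relative of LGR4 known as a marker of intestinal stem cells, stood at 0.54 and 0.2 TPM in wild type and at 3.13 and 3.33 TPM in the labelled knockout (1.64, limma adjusted p = 1.18e-05). TSPAN12, a partner of Frizzled-4, was lower in both A549 cultures, at 0.06 and 0.2 TPM against 2.34 and 3.66 TPM in oncospheres (-1.81, adjusted p = 0.000493) and at 0.17 and 0.16 TPM against 1.85 and 2.15 TPM in normal culture (-1.36, adjusted p = 0.00472). It was also the 1 faller in H2023 normal culture, at 1.83 and 2.9 TPM against 5.13 and 7.23 TPM (-1.10, adjusted p = 0.0486).

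In the list named feedback and target genes, 4 of 14 rose (MSX2, NKD1, PORCN and TNFRSF19) and 0 fell in A549 oncospheres by limma. Over all genes 10.2% rose and 10.5% fell. The list is broader than its name, since it also holds PRICKLE1, DAAM1, ROCK2, VANGL2 and PORCN. PORCN was counted above with the ligands as well, so the 4 are not a count of target genes. NKD1, an inhibitor of the relay protein Dishevelled that Wnt signalling induces, stood at 1.65 and 1.86 TPM in wild type and at 6.68 and 7.05 TPM in the labelled knockout (1.51, adjusted p = 0.00413). TNFRSF19, a receptor and Wnt target also called TROY, stood at 0.25 and 0.45 TPM in wild type and at 8.24 and 19.66 TPM in the labelled knockout (3.36, adjusted p = 8.06e-06). The nuclear list gave 4 risers of 15 and the cytoplasmic list 3 of 19, both with 0 fallers, against the same shares of all genes. CTNNB1, the gene of beta-catenin, was among the cytoplasmic risers. It was also called higher in the labelled knockout in both H2023 cultures, and its oncosphere effect was called higher in H2023 than in A549. The antagonist list, which held 6 measured genes besides the members, gave 0 risers and 1 faller, TRABD2B. Nothing is read from the counts of single lists.

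In A549 normal culture the picture was mixed. CCND1, the cyclin D1 gene, stood at 181.22 and 156.53 TPM in wild type and at 65.33 and 47.96 TPM in the labelled knockout (-1.57, limma adjusted p = 0.000501). WNT7B, a Wnt ligand, stood at 73.72 and 63.69 TPM in wild type and at 34.46 and 13.53 TPM in the labelled knockout (-1.61, adjusted p = 0.00445), and WNT10B, another, at 4.75 and 2.83 TPM against 1.01 and 0.74 TPM (-1.33, adjusted p = 0.0022). TLE3, a co-repressor that binds TCF factors, rose, with 20.58 and 13.24 TPM in wild type and 37.32 and 52.36 TPM in the labelled knockout (1.37, adjusted p = 0.0022). Between the 2 A549 cultures the genotype effect differed for 13 of the 84 genes, as it did for 9.71% of all genes, and it was higher in oncospheres for 10 and lower for 3. The 3 were NKD2 (-1.78, adjusted p = 0.0315), WNT4 (-0.75, adjusted p = 0.0425) and TRABD2B (-0.74, adjusted p = 0.0321). Of the 10, PRICKLE1, RSPO3, TLE1 and ZNRF3 are given by name only. The genotype effect was higher in oncospheres than in normal culture for the other 6, WNT6 (2.97, adjusted p = 0.000153), TNFRSF19 (2.49, adjusted p = 0.00385), NKD1 (2.32, adjusted p = 0.00836), WNT7B (2.27, adjusted p = 0.00987), LGR5 (1.94, adjusted p = 0.000339) and CCND1 (1.80, adjusted p = 0.00549).

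**Figure D4:**
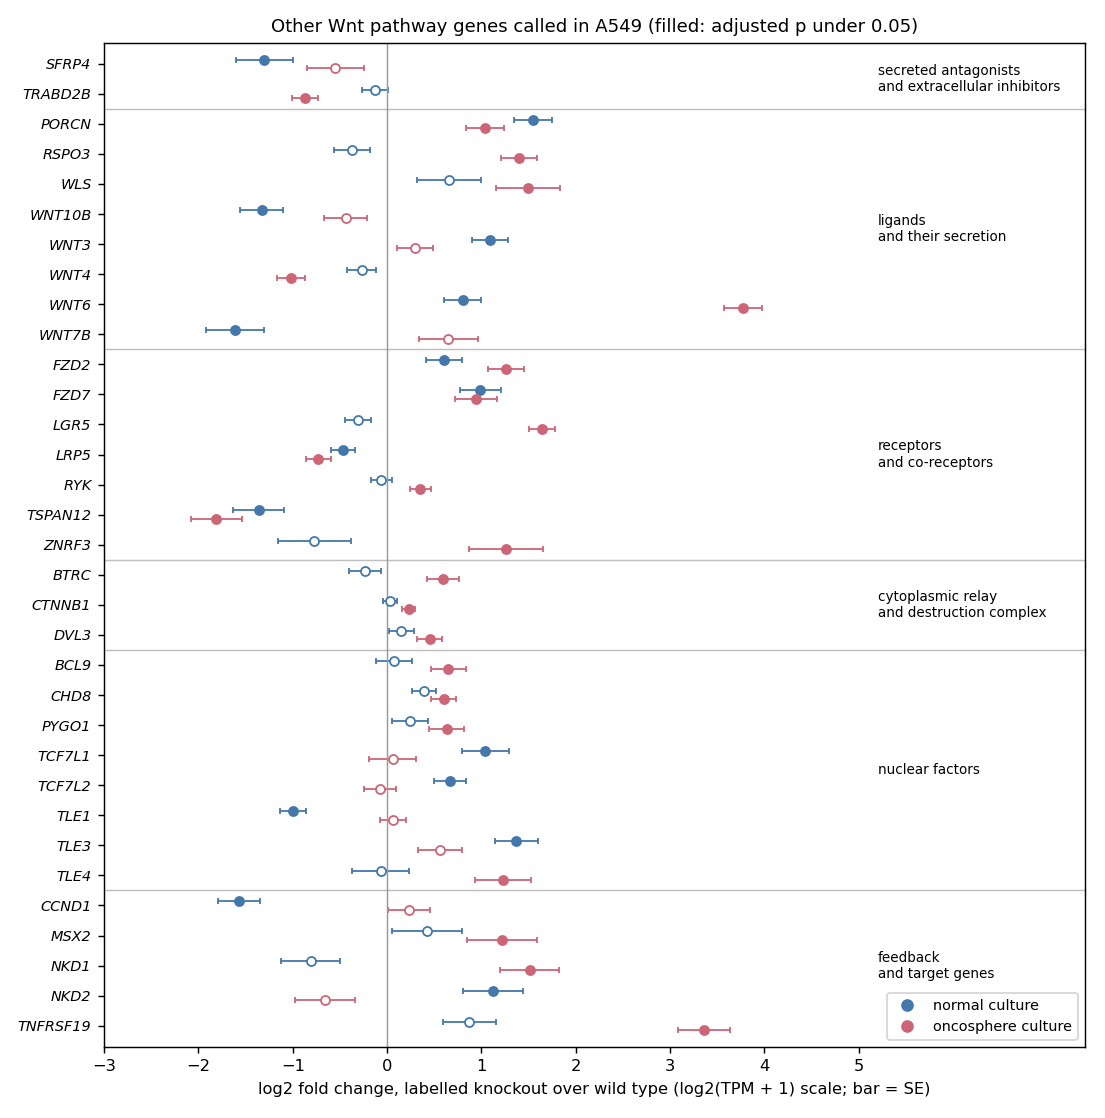
log2 fold change of labelled knockout over wild type in A549 for the 33 genes of the wider pathway lists called in either culture (log2(TPM + 1) scale, bars are standard errors), grouped by list; blue is normal culture, red is oncosphere, and filled points have an adjusted p under 0.05. WNT6 (3.77) and TNFRSF19 (3.36) lie farthest to the right, both in oncospheres, and TSPAN12 is low in both cultures (-1.36 and -1.81).

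The genes whose levels ran most alike over the 16 libraries are given as a description, since the libraries share lines, cultures and clones, and 14022 genes were searched. SFRP5 ran closest to GOLGA7B (Pearson r = 0.966) and WNT6 (r = 0.936), and WNT6 too was high in the 2 A549 oncosphere libraries labelled knockout. RNF43 was closest to ELF3 (r = 0.961) and MMP7 (r = 0.953), and WNT5A to TNFRSF11B (r = 0.969) and CMBL (r = 0.966). SFRP1 was closest to SNAPC1 (r = 0.947) and PAPSS1 (r = 0.938), TCF7 to CACNA1G (r = 0.942) and EID1 (r = 0.924), and DKK3 to FCGRT (r = 0.93) and ARMCX6 (r = 0.886). For DKK1 they were KAT2B (r = 0.904) and ZNF410 (r = 0.894), for LGR4 AP2A2 (r = 0.893) and LANCL1 (r = 0.874), and for AXIN2 PUS3 (r = 0.889) and DRC3 (r = 0.888).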

How the data were processed

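Libraries were made from 1 µg of total RNA with a stranded TruSeq mRNA kit, per the labels' protocols. The submitters' processing notes name HISAT2, StringTie and GRCh38 without roles, and whether counting used the strand is not given in the sources used here. Each of the 4 deposited tables (2 lines, 2 cultures) holds 4 libraries as TPM made by the authors, in 18361 rows. 119 gene identifiers fill several rows with identical values, and 1 row of each was kept, leaving 18227 genes. Beside TPM the authors deposited a mean normalized count (a signal), their log2 fold change between genotypes and its standard error, a statistic (a score), and raw and adjusted p-values. In every row the statistic has the sign opposite to that of the fold change, whose sign was used here. Lines were read from the table and cultures, genotypes and replicates from the column names. Mapped gene positions are those of GENCODE on GRCh38.

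Groups were compared with limma 3.58.1 in R 4.3.3 (mean-variance trend, log2(TPM + 1), 8 group means over 16 libraries, two-sided, Benjamini-Hochberg over all genes, threshold 0.05, no filter on low values). The code was tested on simulated data. Alternatives were pseudocounts of 0.1 and 0.5, a filter of 1 TPM in 2 libraries (all 9 genes and 16379 genes in all pass it), the 8 libraries of a line, the 4 libraries of a comparison, a replicate block, centring on the median, leaving out 15 mitochondrial genes, leaving out each replicate, and the authors' deposited values. The authors' tables hold no test between effects. Such differences were computed here by subtracting 2 of their fold changes. The 2 standard errors were combined as if independent, with p-values from a normal approximation and a Benjamini-Hochberg adjustment made here. Leaving out H2023 oncosphere labelled-knockout replicate 1 from comparisons that do not hold it was added after seeing the data. The genes and the pathway lists were chosen with earlier results of these data known. From the lists, genes were named when called between genotypes with an absolute log2 fold change of at least 1 and groups that do not overlap, up to 6 a comparison, and others named in passing were chosen after their values were seen. LEF1 is not analysed here.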

Additional observations from a re-analysis of the deposited data

Results flagged for a closer look

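7 differences between genotype effects passed the test of the difference itself (limma over the 16 libraries, adjusted p under 0.05), and their causes were not tested. The genes were chosen with results of these libraries known, so these tests are no independent evidence about them. In A549 the effect of the labelled knockout was larger in oncospheres than in normal culture for SFRP5 (3.76 on the log2 scale, adjusted p = 0.000184) and smaller for DKK3 (-1.45, adjusted p = 0.0266). Between the lines, H2023 minus A549, the effect on RNF43 differed by 2.97 in normal culture (adjusted p = 0.00166) and by 2.09 in oncospheres (adjusted p = 0.00696). In oncospheres the effects on DKK1 (3.45, adjusted p = 0.0208), TCF7 (-1.53, adjusted p = 0.00746) and SFRP5 (-3.46, adjusted p = 0.000108) also differed between the lines. Each line is represented by 1 clone labelled knockout, so a difference between lines cannot be told apart from a difference between clones.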

How the results depend on the processing

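Of 956 alternative values of 70 single-gene results, 809 kept their direction and side of the threshold, 80 lost their call, 64 gained one and 3 turned direction. The 3 were DKK1 in oncosphere over normal culture of the H2023 labelled knockout without H2023 oncosphere labelled-knockout replicate 2 (0.66, adjusted p = 0.379), and, without A549 oncosphere wild-type replicate 1, SFRP1 in H2023 over A549 wild-type oncospheres (-0.25, adjusted p = 0.482) and in the line difference of the oncosphere genotype effect (0.08, adjusted p = 0.913). For the same 3, the other choice of replicate gave DKK1 -1.82 (without labelled-knockout replicate 1) and SFRP1 0.94 and -1.11 (without wild-type replicate 2), all past the threshold. The genotype calls of SFRP1 and RNF43 in both A549 cultures, of SFRP5 and TCF7 in A549 oncospheres and of DKK3 in A549 normal culture held under all alternatives run on them. The 70 results are those called in at least 1 setting, and a gene called in none for a comparison is left out. The 956 values include the omission that was added after seeing the data.

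Counts of the 9 genes moved as follows. By the authors' deposited tables, between genotypes 5 passed in A549 normal culture (22.1% of all genes tested), 7 in A549 oncospheres (20.7%) and 3 in H2023 normal culture (10.8%). By differences computed here from the same tables, 5 passed in the culture difference of A549 (9.8%) and 4 in the line difference of normal culture (19.2%). With the 8 libraries of a line, 1 passed between genotypes in H2023 oncospheres. With the 4 libraries compared this was 0, and 1 passed between cultures in H2023 wild type. In that setting no gene at all passed between genotypes in H2023 oncospheres, so the 0 says nothing about these 9 genes. The numbers called over all genes with the libraries of the line and with those compared are in the next paragraph. The settings also change the share called over all genes, and nothing is read from these counts.

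Leaving out 1 replicate at a time gave, between genotypes, 3 to 4 in A549 normal culture (7.82% to 17.3% of all genes), 4 to 5 in A549 oncospheres (11.9% to 20.5%), 0 to 2 in H2023 normal culture (0.565% to 2.88%) and 0 to 1 in H2023 oncospheres (1.72% to 3.29%). Between cultures it gave 1 to 4 in A549 wild type (29.2% to 41.3%), 2 to 3 in A549 labelled knockout (13.3% to 22.0%), 1 to 4 in H2023 wild type (18.0% to 27.5%) and 1 to 3 in H2023 labelled knockout (21.1% to 25.5%). Between wild-type lines it gave 3 to 4 in normal culture (31.1% to 41.2%) and 3 to 5 in oncospheres (37.7% to 47.5%). For the differences of effects it gave 1 to 2 for A549 cultures (3.6% to 9.24%), 0 for H2023 cultures (0.00549% to 0.0549%), 1 to 2 for lines in normal culture (6.45% to 12.2%) and 3 to 5 in oncospheres (10.5% to 14.9%). For comparisons that do not hold H2023 oncosphere labelled-knockout replicate 1, these ranges of shares also take in its omission. That omission was added after seeing the data and leaves the compared groups whole, so the upper ends lie close to the main fit. Over all genes, 546 passed between genotypes in H2023 normal culture, against 147 with the libraries of the line, 0 with the 4 compared and 1665 in the authors' deposited table. In H2023 oncospheres 1014 passed, against 281 and 0. With the 4 libraries compared, 1971 in place of 3233 genes passed in A549 normal culture, 2413 in place of 3780 in A549 oncospheres and 1105 in place of 4986 between H2023 wild-type cultures. For the culture difference of H2023 the 1 gene became 7 with the replicate block and 77 by differences computed here from the authors' deposited tables.

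The replicate numbers are shared by the groups, but the labels do not say that they pair samples. Deviations of same-numbered libraries were correlated across the 11626 genes at 1 TPM or more in every library. The r was 0.11, 0.16, 0.06 and 0.52 in A549 normal, A549 oncosphere, H2023 normal and H2023 oncosphere culture. With the replicate block, 4 of the 9 genes passed between cultures in H2023 wild type, 6 in H2023 labelled knockout, 4 in the culture difference of A549 and 2 in the line difference of normal culture, where 28.2%, 33.2%, 12.5% and 15.0% of all genes did. Of single genes 13 gained a call and 2 lost it (DKK3 between genotypes in H2023 oncospheres, adjusted p = 0.0523, and SFRP1 between A549 labelled-knockout cultures, 0.0605). DKK1 gained one between genotypes in A549 normal culture (0.0122), A549 oncospheres (0.0148) and H2023 oncospheres (1.85, 0.0254), between H2023 wild-type cultures (0.0253) and in the line difference of normal culture (0.0169). RNF43 (0.0258) and AXIN2 (0.0417) gained one in the culture difference of A549. LGR4 gained one between genotypes in A549 oncospheres (0.0245) and in the line difference of oncospheres (0.0132). It also gained one between cultures in H2023 wild type (0.0198) and H2023 labelled knockout (0.0276).

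With 2 libraries a group, 1 clone a line and no record of depth, small differences and values near 0 (SFRP5 in H2023, WNT5A in A549) cannot be resolved.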
